A study of Rattus norvegicus with 11 samples.

Results

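Cytosolic ribosomal protein genes were represented by 74 gene names among the 35581 names on the array. They were chosen by name alone: a non-control probe belonged to the set where its gene name was Rpl or Rps followed by a digit, or Rplp1 or Rplp2, with or without the suffix "_predicted", and the S6 kinases (Rps6k) were left out. The set held 110 of the 41012 non-control probes, 67 for 44 genes of the large subunit and 43 for 30 genes of the small subunit. Of these genes, 50 had 1 probe and 24 had more, up to 5. No probe carried the name Rplp0, which anchors the other P-proteins on the ribosome, nor Rpl22l1, Rps27l, Rpl39l or Rpl7l1, paralogs of common ribosomal proteins.

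The cytosolic ribosome is the particle that translates nuclear-encoded mRNAs. Its small subunit reads the message and its large subunit joins amino acids, and each ribosomal protein is present in 1 copy per ribosome except the stalk proteins P1 and P2. Mammalian cells keep the mRNAs of these proteins at high and balanced levels. Most of these mRNAs begin with a run of pyrimidines, the 5′ terminal oligopyrimidine tract, through which TOR signalling controls how much of the message is translated. In neurons the proteins are made in the cell body and also from mRNAs in axons and dendrites. The arrays measured the amount of mRNA and not its translation.

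RNA came from the medial prefrontal cortex of male rats aged 4 months, 6 that had self-administered heroin through a jugular catheter by licking a spout and 5 yoked rats that received saline whenever a matched animal received heroin. All rats of both groups had 14 days of abstinence and then an extinction session without drug, so neither group was taken directly from drug exposure, and extinction itself was shared. Each rat had 1 single-colour Agilent array of 60-nucleotide probes. The numbers 1 to 6 for heroin rats and 2 to 6 for saline rats are those of the sample records, and the comparison asked how abstinent heroin rats differed from their drug-naive controls.

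The array signals had not been scaled to each other when deposited. Following the methods of the study, the 50th percentile of an array's non-control probes served as its divisor, and a level is given below in array medians, where 1 equals the middle probe of that array. A difference is the mean log2 level of heroin rats minus that of saline rats. The array medians ran from 42.7 to 78.3 processed signal units in heroin rats and from 58.0 to 83.2 in saline rats, and 28185 to 33835 probes were detected per array. Every saline array lay at position 3 of its slide and every heroin array at position 4, so position and group cannot be told apart. Same-numbered heroin and saline arrays shared a scan. Markers of neurons were detected on all arrays in 9 of 9 probes, and none of those passed both thresholds of the study, an unadjusted p under 0.02 (here from limma) and a change of at least 1.4-fold. Of the 12 tested oligodendrocyte, 9 astrocyte, 6 endothelial, 2 blood and 4 striatal probes none passed them either, whereas 1 of 9 microglial probes (Ptprc, -0.50 ± 0.16) was lower and 1 of 8 interneuron probes (Vip, 0.49 ± 0.13) was higher in heroin rats, both no longer past them after quantile normalization. The summed level of the oligodendrocyte markers ran from 422 to 1085 array medians in heroin rats and from 359 to 1115 in saline rats, and that of the neuron markers from 392 to 681 and from 285 to 606. After quantile normalization the median difference was -0.21 over the 12 oligodendrocyte probes, with 1 higher, -0.23 over the 4 striatal probes, with 0 higher, and 0.038 over the 9 neuronal probes, and their part in the results below was not tested.

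The probe sequences show what was measured. They are given for Rpl15 and Rpl28, whose probes differed most in their estimates under the scaling of the study. Those of Rps15, whose probes lie on opposite strands, are given too. Rpl15, a large subunit protein, had a bright and a dim probe on the plus strand of chromosome 15 (build rn3, as in the array files). The bright one covered chr15:9082880-9083180, an interval longer than the probe, so that it joins separate genomic pieces, and the dim one lay 2.52 kb away at chr15:9085404-9085463.
Rpl15 bright probe: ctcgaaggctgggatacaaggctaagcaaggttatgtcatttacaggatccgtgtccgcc
Rpl15 dim probe: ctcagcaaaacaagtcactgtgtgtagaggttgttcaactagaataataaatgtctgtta

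Rps15, a small subunit protein of the decoding head, was read by a minus-strand probe that joins separate genomic pieces (chr7:10928409-10928778). A second probe named Rps15 lies on the opposite strand (chr7:10927645-10927704), so it is not a measure of the mRNA that the minus-strand probe reads. It counts in the set because members were chosen by name. The minus-strand probe holds 23 bases that lie from base 3 to base 25 after the start of Rps15 in RefSeq. No other probe of the set shared as many as 20 bases with the RefSeq window around the start of its gene.
Rps15 probe: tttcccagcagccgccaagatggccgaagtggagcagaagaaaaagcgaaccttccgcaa
Rps15 opposite-strand probe: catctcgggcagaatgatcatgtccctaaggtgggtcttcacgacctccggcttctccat

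Rpl28, a large subunit protein, had a bright probe (chr1:67848705-67848764) and, 1.48 kb from it on the same minus strand, one in the dimmest 10% of tested probes (chr1:67847229-67847288).
Rpl28 bright probe: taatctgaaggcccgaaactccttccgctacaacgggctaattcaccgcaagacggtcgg
Rpl28 dim probe: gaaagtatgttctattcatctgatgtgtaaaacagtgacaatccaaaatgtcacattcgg

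Among the 110 probes, 23 had a genomic interval longer than the probe, 84 an interval of exactly 60 bases and 3 a shorter one. Probes for predicted transcript models that resemble ribosomal proteins are common on this array. At least 1 predicted transcript record was listed with 88 of the 110 probes. Whether such a record stood for the gene itself or for a look-alike was not checked. By sequence, 13 of the 110 shared 30 or more bases in a row with a probe of another name. The signal of such a probe can therefore sum several near-identical transcripts. Overlaps of 20 or more bases tied 6 pairs of probes within a gene, which are repeats of 1 measurement rather than separate members. The largest gap between the differences of such a pair was 0.08.

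Ribosomal protein mRNAs were among the brightest signals of the cortex. Of the 110 probes, 108 were detected on all 11 arrays and 107, for 73 genes, entered the test among 25555 probes. Of these 107, 93 lay in the brightest 10% of all tested probes by mean signal. The 3 left out included the Rpl37a probe detected on 6, and a Rpl26 probe whose spots were marked as non-uniform or outlying on 8 arrays. In each rat the median over the 107 probes ranged from 180 to 265 array medians.

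No ribosomal protein gene passed the test. Past both thresholds, 0 of 107 probes were called, beside 2.72% of all tested probes (694 of 25555, limma). At an unadjusted p under 0.05 the count was 2 of 107, both higher in heroin rats, beside 18.5% of all tested probes. After Benjamini-Hochberg adjustment over all tested probes neither any ribosomal protein probe nor any other probe was below 0.05 (0% of all tested probes). In none of the 107 were the 2 groups of rats free of overlap, against 1.78% of all probes. Among the 2556 probes of the brightest 10%, which share the set's brightness, 1.13% passed both thresholds and 25.2% had an unadjusted p under 0.05. The 93 ribosomal protein probes in that class gave none of either.

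The 95% interval of the difference bounds what could have been missed. Under the 50th-percentile scaling it lay wholly inside a 1.4-fold change in either direction for 64 of 107 probes and spanned 0 for 105. The median lower and upper limits were -0.16 and 0.44. Under quantile normalization, in which every array is given the same distribution of values, 96 of 107 intervals lay inside 1.4-fold and the median limits were -0.30 and 0.15. The widest interval was that of Rpl10l, from -0.97 to 1.29. The counts and limits above include the 10 probes saturated on any array, 2 of them on all 11. Those 2 have no measurable difference to bound, and for the others saturation may have narrowed the interval.

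The sign of the small shift shared by these genes depended on how the arrays were scaled. Under the 50th-percentile scaling 105 of 107 probes were higher in heroin rats, against 78.7% of all tested probes, and their median difference was 0.147. The median over all tested probes was itself 0.183, and relative to it the ribosomal protein median was -0.036. After quantile normalization 21 of 107 were higher, against 53.2% of all tested probes, and the median difference was -0.084, beside 0.013 over all tested probes. None of the 107 passed both thresholds under quantile normalization (1.79% of all tested probes). One had an unadjusted p under 0.05 (7.71% of all tested probes), a Rpl18 probe singled out after its value was seen, with -0.23 by quantile normalization (exact permutation p = 0.00866) and 0.02 by the 50th percentile. Scaling to the 75th percentile gave 28 higher, against 41.7% of all tested probes, and a median of -0.069, and scaling to the median of the probes detected on all arrays gave 35 higher, against 48.2%, and a median of -0.043. Relative to the median of all tested probes, the set was at -0.035 with the 75th percentile, -0.037 with the detected probes and -0.036 without any scaling. A divisor moves all probes of an array alike, so these values nearly match that of the 50th percentile by construction. They are not separate checks of it. Quantile normalization, which is not such a divisor, gave -0.097. It was at -0.019 when probes detected on all arrays of only 1 group were added, and at 0.049 when no detection was required.

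**Figure D1:**
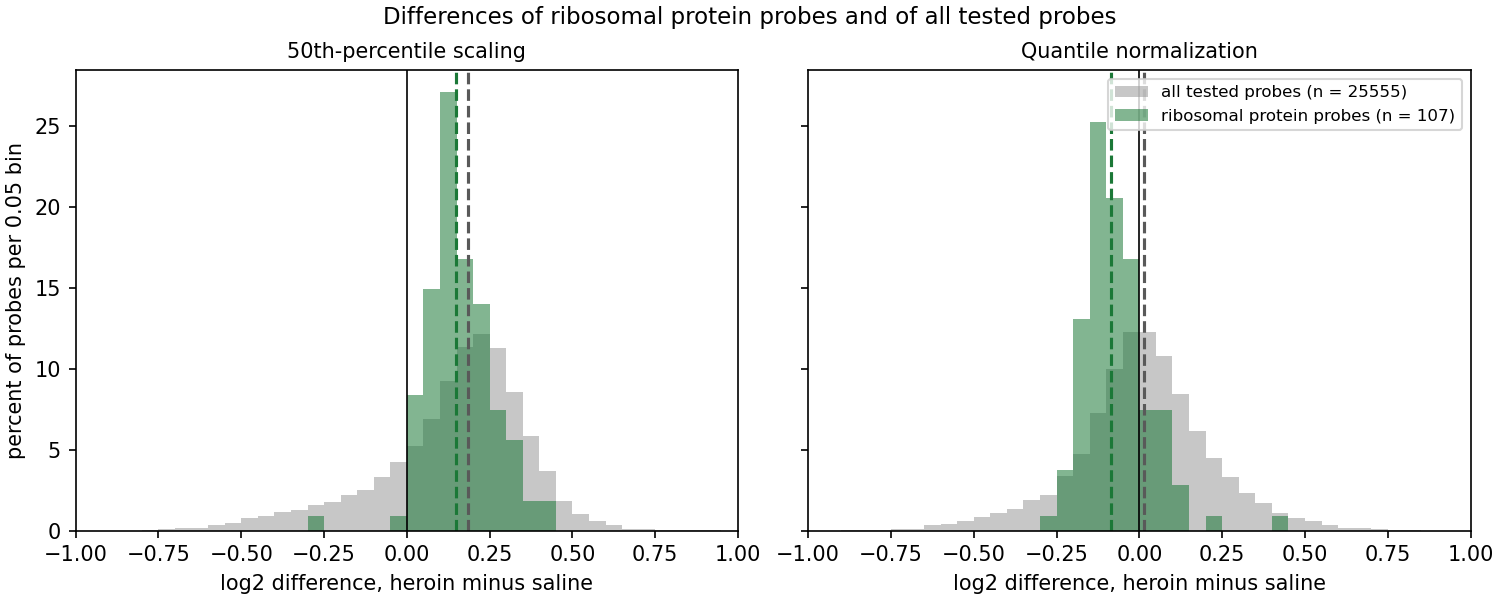
Distribution of log2 differences (heroin minus saline) over all 25555 tested probes (grey) and the 107 ribosomal protein probes (green), as percent of probes per bin, with dashed lines at the medians. The ribosomal protein median was 0.147 beside 0.183 for all probes under the 50th-percentile scaling, and -0.084 beside 0.013 after quantile normalization, so its sign flipped with the scaling.

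Brightness moved with this shift. Over all tested probes the median difference under the 50th-percentile scaling was -0.041 in the dimmest 10% and 0.24 in the brightest 10%. The 93 ribosomal protein probes of the brightest class had a median of 0.14, below the 0.24 of all 2556 probes in it, and 92 of them were higher in heroin rats, where 97.7% of all its probes were. With the 75th percentile as divisor all probes of that class had a median of 0.025, and after quantile normalization -0.00086. The part of brightness in the position of the set was not tested.

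**Figure D2:**
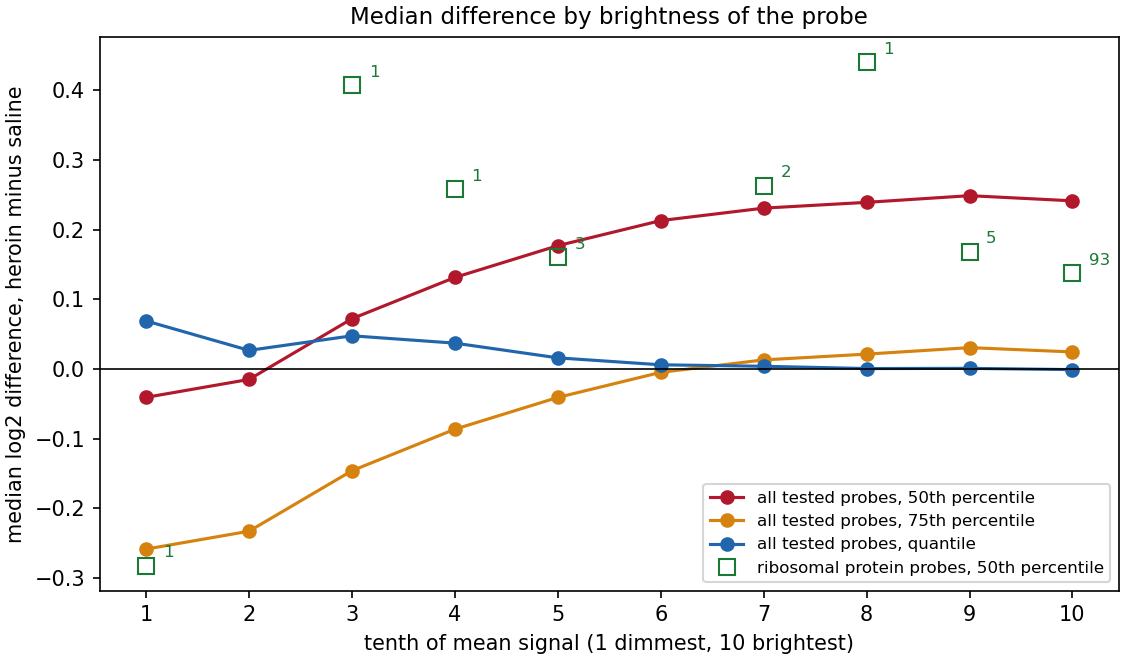
Median log2 difference (heroin minus saline) in 10 classes of all tested probes by mean signal, for 3 scalings, and the median of the ribosomal protein probes in each class under the 50th-percentile scaling (open squares, with the number of probes). Under the 50th-percentile scaling the line ran from -0.041 in the dimmest class to 0.24 in the brightest, whereas after quantile normalization it ran from 0.069 to -0.00086.

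The levels in single rats overlapped. The median over the 107 probes in heroin rats 1 to 6 was 247, 223, 225, 265, 180 and 264 array medians. In saline rats 2 to 6 it was 185, 216, 239, 230 and 182. The means were 234 ± 32.0 (SD, n = 6) and 210 ± 26.1 (SD, n = 5), and both groups held rats near 180. Heroin rat 6 and saline rat 6 stood apart in their divisor. Heroin rat 6 had the lowest unscaled ribosomal protein median of all rats, 11292 processed signal units, and the lowest array median, 42.7, which left it at 264 array medians. Saline rat 6 had 15112 units and the highest array median, 83.2, which left it at 182. Heroin rat 6 gave the highest value of all 11 rats for 55 of the 107 probes and saline rat 6 the lowest for 50. After quantile normalization heroin rat 6 was highest for 24 and lowest for 38, and heroin rat 5 was lowest for 41. Without heroin rat 6 the median difference was 0.13 and 95 of 108 probes were higher. Without saline rat 6 it was 0.085 and 95 of 107 were higher.

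**Figure D3:**
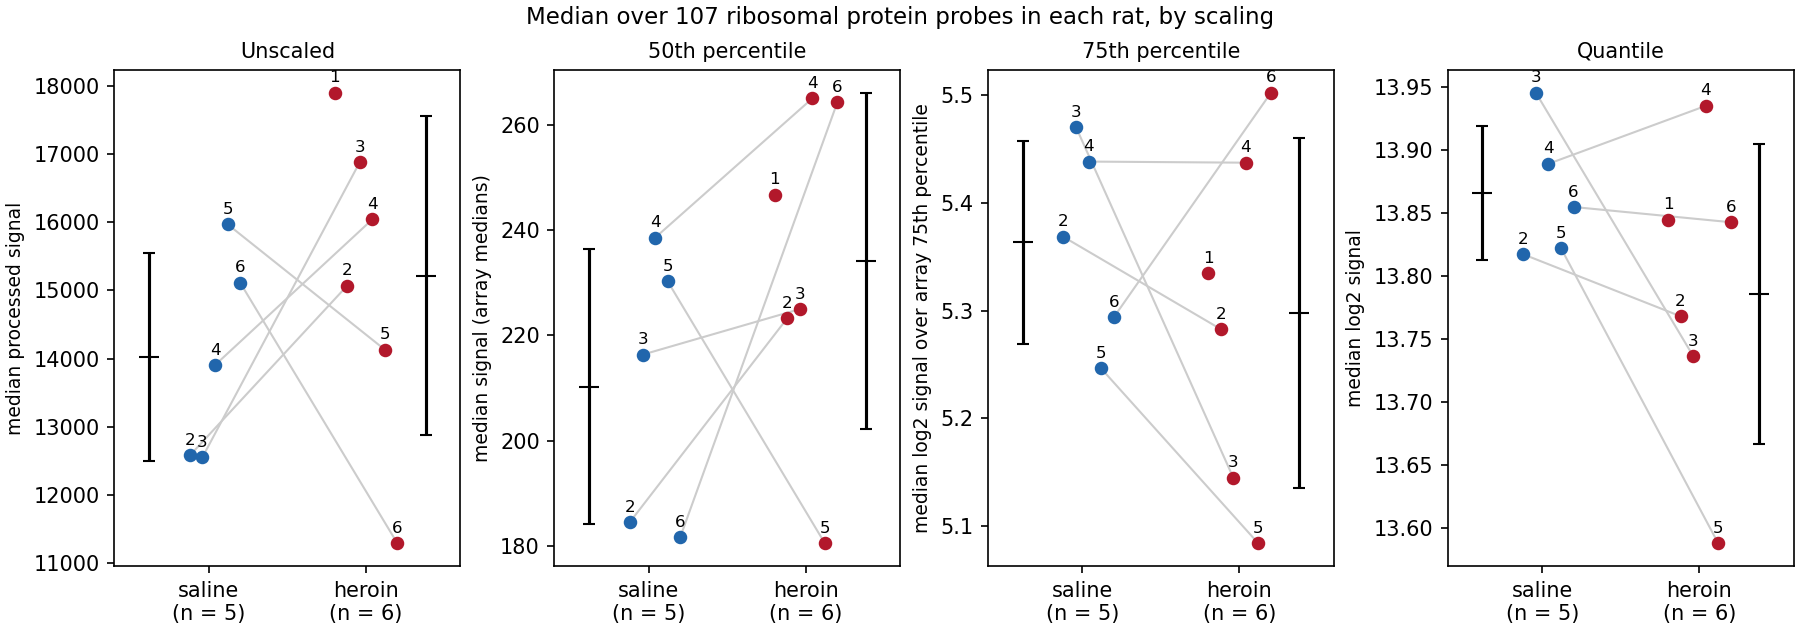
Median over the 107 tested ribosomal protein probes in each rat, unscaled, in array medians, on a log2 scale relative to the 75th percentile, and on a log2 scale after quantile normalization. Points are rats, labelled by number and shifted sideways by it, grey lines join arrays of 1 scan, and bars give the mean ± SD of each group. The groups overlapped in every panel, and the heroin mean lay above the saline mean in the left 2 panels and below it in the right 2.

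Within the 5 scans that held both groups, the median heroin minus saline difference of the set was 0.25, 0.047, 0.13, -0.24 and 0.55 for rats 2 to 6. Heroin rat 5 was thus lower than saline rat 5, in 101 of 107 probes, while the other pairs were higher. After quantile normalization the 5 values were -0.055, -0.20, 0.019, -0.13 and -0.055, so 4 of 5 scans gave a lower median in the heroin rat. The spread of a probe among rats of a group also changed with the scaling: its median over the 107 probes was 0.22 log2 units under the 50th percentile and 0.15 after quantile normalization, beside 0.27 and 0.24 over all tested probes.

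The 65 tested probes of the large subunit had a median difference of 0.13 and the 42 of the small subunit 0.19, with 64 and 41 higher in heroin rats. After quantile normalization the medians were -0.10 and -0.045, with 10 and 11 probes higher. With the detected probes as divisor 15 of 65 and 20 of 42 were higher. The difference between the subunits was not tested. Neither subunit had a probe past both thresholds under these 2 scalings. The probes that cross exon junctions, judged by an interval longer than the probe, had a median of 0.11 (22 tested), and those of exactly 60 bases 0.16 (82 tested). The 85 tested probes listed with a predicted model had 0.14 and the 22 without one 0.20.

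The smallest p of the set belonged to the dim Rpl15 probe. It measured 12.7 array medians in the lowest, 13.8 in the middle and 19.9 in the highest heroin rat, and 8.39, 10.3, 12.4, 12.8 and 9.90 in saline rats 2 to 6. Saline rat 5 reached just above the lowest heroin rat, and the other saline rats lay below all of them. The difference was 0.44 ± 0.15 (SE), or 1.36-fold, with an adjusted p of 0.263 by limma, an exact permutation p of 0.00433 over the 462 divisions of the rats, and a quantile-normalized value of 0.20. The bright Rpl15 probe measured 114 to 200 in heroin rats with a middle of 179, and 163, 160, 169, 187 and 136 in saline rats. It gave 0.01 ± 0.16 and, after quantile normalization, -0.23. The 2 probes, whose sequences are printed above, thus differed by 0.43 in their estimates under both scalings, and that gap itself was not tested.

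Rps15 was the other gene with an unadjusted p under 0.05. Its probe at the RNA start measured 29.3, 31.0 and 34.1 array medians in the lowest, middle and highest heroin rat, and 24.98, 27.8, 29.9, 21.7 and 22.5 in saline rats 2 to 6. Only saline rat 4 reached into the heroin range. The difference was 0.31 ± 0.12 (limma, adjusted p = 0.263, exact permutation p = 0.00649), and 0.07 after quantile normalization with an exact permutation p of 0.76. The opposite-strand probe named Rps15 measured 15.9 in heroin rat 6 and 6.19 to 7.49 in the other heroin rats, beside 4.91 to 7.85 in saline rats, and gave 0.37 ± 0.21.

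Rpl37, a large subunit protein chosen here for it, also had an opposite-strand probe that counts in the set by name. It measured 2.07 to 5.91 array medians with the highest value again in heroin rat 6, and a difference of 0.16 ± 0.23.

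**Figure D4:**
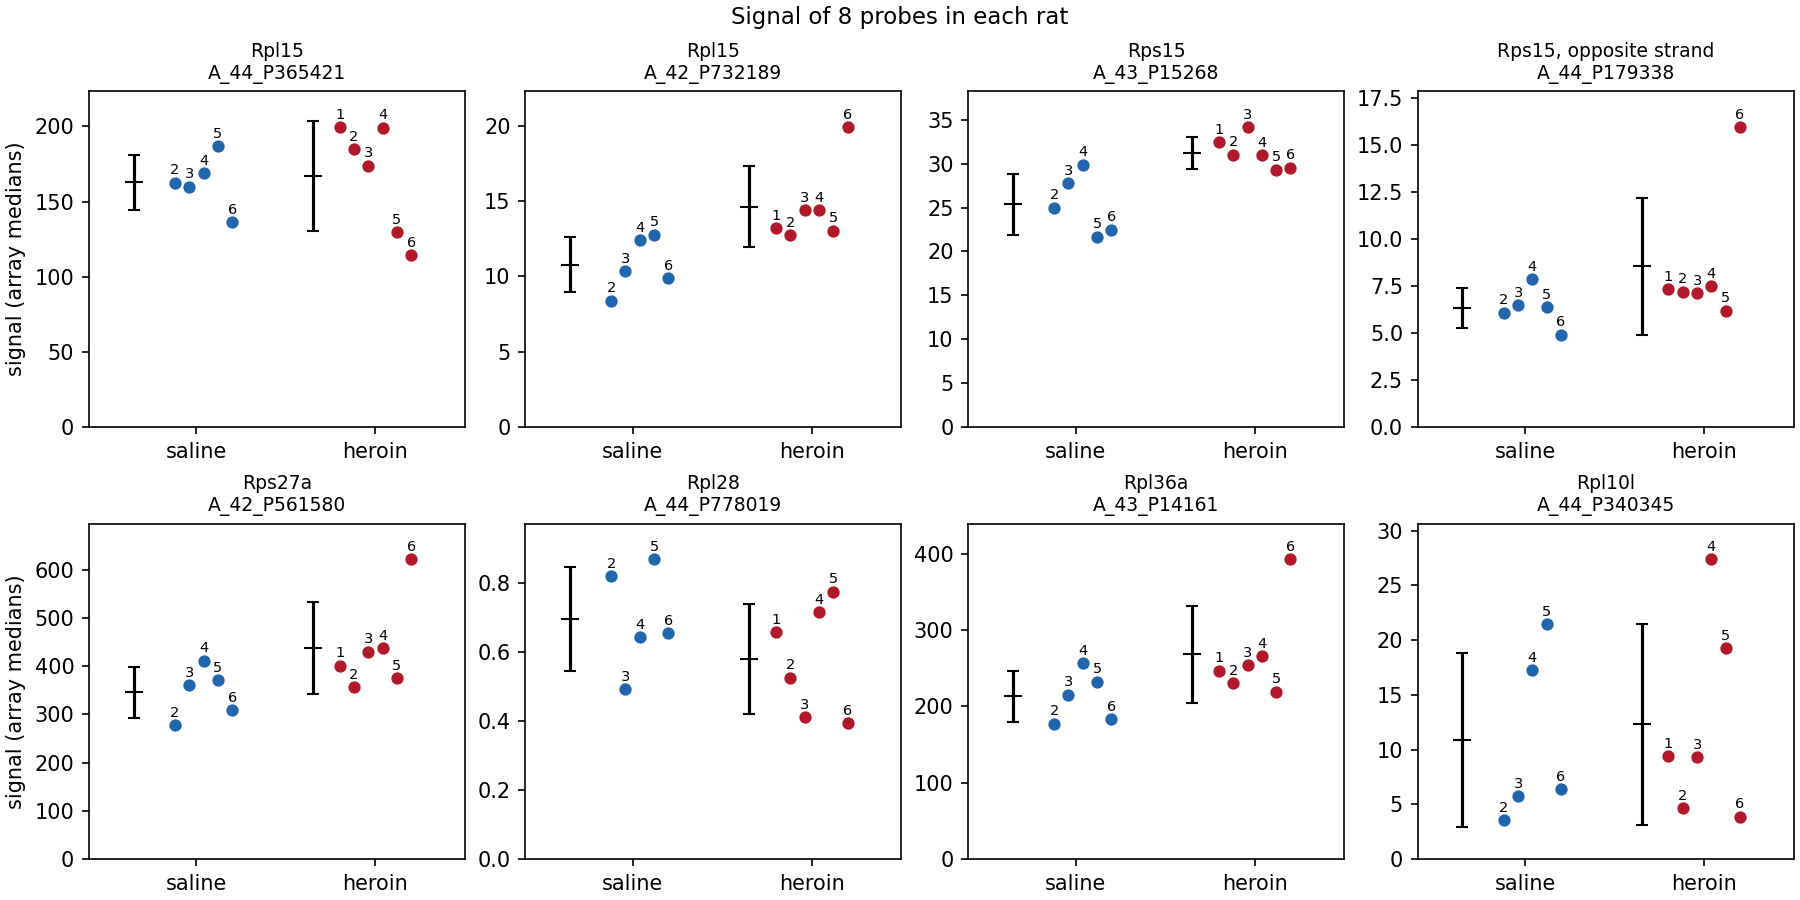
Signal in array medians of 8 ribosomal protein probes in each rat (points, labelled by rat number and shifted sideways by it), with the mean ± SD of each group at its left, on axes that start at 0. Heroin rat 6 stands alone at the top of the opposite-strand Rps15 probe (15.9), of Rpl36a (392) and of Rps27a (621), and the Rpl10l values spread from 3.59 to 27.4 over both groups.

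Only Rpl28 and Rps20, among the 73 tested ribosomal protein genes, had a probe below 0 under the 50th-percentile scaling. The dim Rpl28 probe measured 0.394, 0.591 and 0.774 array medians in the lowest, middle and highest heroin rat and 0.818, 0.492, 0.642, 0.867 and 0.654 in saline rats, and gave -0.28 ± 0.20. With the 75th percentile as divisor its difference was -0.50, and it was then the only 1 of 107 with an unadjusted p under 0.05, beside 9.55% of all tested probes. The bright Rpl28 probe gave 0.16 ± 0.17. Rps20, a small subunit protein of the head singled out for its sign, had a probe at -0.01 ± 0.15 and another at 0.06 ± 0.15. After Rpl28 and Rpl15, wide gaps between probes of a gene under the 50th-percentile scaling included those of Rpl17 (0.35 and 0.13) and Rpl10 (0.32 and 0.15). After quantile normalization the gap between the Rpl28 probes was only 0.088. Those of Rpl15, Rpl17 and Rpl10 were then 0.43, 0.21 and 0.17. Rpl10, which completes the large subunit late in its assembly, measured 148, 175, 205, 210 and 147 array medians in saline rats and 184 to 295 in heroin rats on the probe with 0.32 ± 0.15, whose adjusted p was 0.275 (limma).

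The stalk proteins recruit the translation factors. The Rplp1 spot was saturated on all 11 arrays, and so was that of Rps23, a decoding-centre protein, so neither has a measurable difference. Their recorded levels were 792 to 1476 and 687 to 1309 array medians. Rplp2 measured 179 to 332 array medians in heroin rats and 246, 250, 284, 262 and 192 in saline rats, with a difference of 0.08 ± 0.16. Rpl5 and Rpl11, which travel with 5S RNA as a particle that can also stabilise p53, gave 0.06 to 0.11 over 3 Rpl5 probes and 0.15 ± 0.12 for Rpl11. All 5 of these unsaturated probes were below 0 after quantile normalization, between -0.19 and -0.10, and none passed a threshold.

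Rps6, the target of the S6 kinases, was saturated in 2 heroin rats and gave 0.10 ± 0.15. Rpl13a, Rpl19, Rpl32 and Rps18, common reference genes for RT-qPCR, had differences of 0.23 ± 0.15, 0.16 ± 0.14, 0.11 ± 0.14 and 0.12 ± 0.13 on their brightest probes. All 4 were below 0 after quantile normalization, from -0.12 to -0.02. Rps19, which is mutated in Diamond-Blackfan anaemia, gave 0.05 ± 0.13, and Rps14, another anaemia gene, 0.11 ± 0.25. The wide error of Rps14 came with 571 array medians in heroin rat 6 against 180 to 356 in the other heroin rats, and 215, 396, 330, 230 and 254 in saline rats. Rps3, which also takes part in DNA repair, gave 0.11 ± 0.12, Rps4x 0.21 ± 0.14, Rpl3, which lies near the peptidyl transferase centre, 0.20 ± 0.15, and Rpl22 0.14 ± 0.14.

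Rps27a encodes ubiquitin fused to a ribosomal protein. It measured 357, 416 and 621 array medians in the lowest, middle and highest heroin rat and 278, 360, 412, 371 and 308 in saline rats, with 0.33 ± 0.16 (limma, adjusted p = 0.274, exact permutation p = 0.0563). The highest value was again that of heroin rat 6, and the groups overlapped. The 2 probes named Rpl36a, which share 54 bases, lie on chromosome 6 in rn3 while RefSeq has the gene on chromosome X in GRCr8, so that the locus they read is uncertain. They gave 0.27 ± 0.18 and 0.32 ± 0.16, Rps15a 0.29 ± 0.17 and 0.21 ± 0.13, and Rpl4 0.22 ± 0.13. Among the probes with the highest recorded signals, Rps16 was at 846 to 1437 array medians in heroin rats and 782 to 1169 in saline rats. Its spot was saturated on 4 arrays and gave 0.11 ± 0.15. Rpl8 was saturated on 5 arrays and gave 0.08 ± 0.16, and Rpl35, saturated on 9, gave 0.03 ± 0.16.

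**Figure D5:**
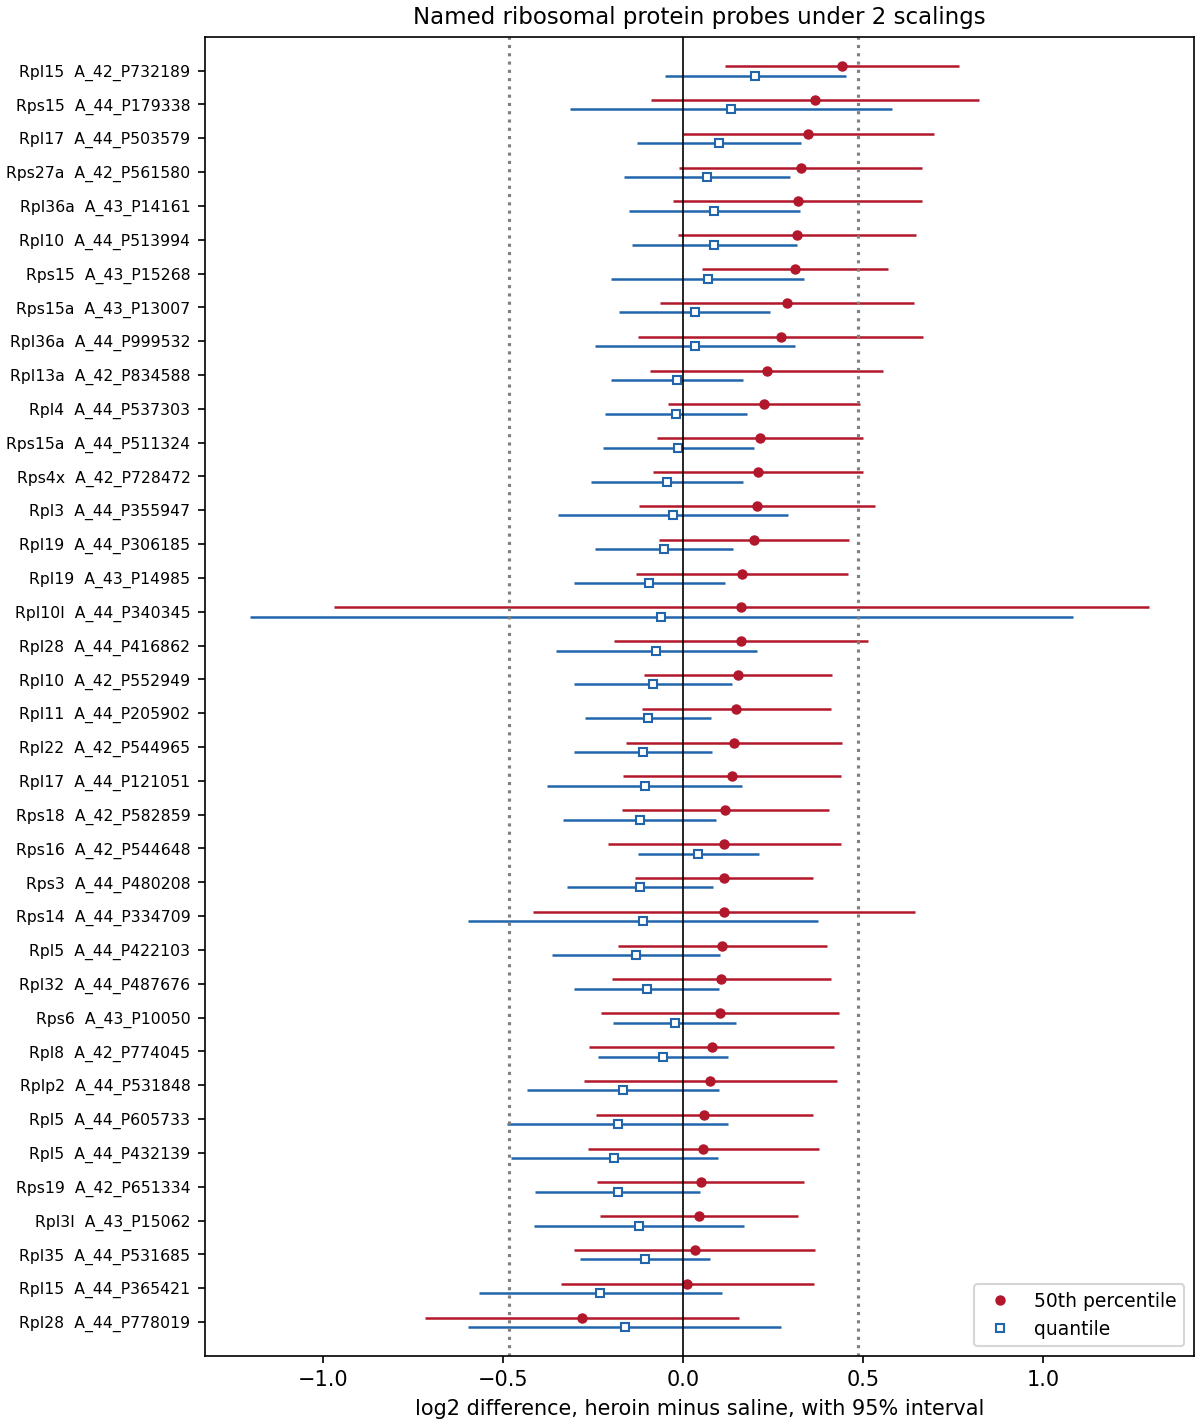
Log2 difference (heroin minus saline) with its 95% interval from limma for the named ribosomal protein probes that were not saturated on all arrays, under the 50th-percentile scaling (red) and quantile normalization (blue). Dotted lines mark a 1.4-fold change. Nearly every red point lay right of 0 and most blue points left of it, and 2 red intervals left out 0, those of the dim Rpl15 probe and of the Rps15 probe A_43_P15268.

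Paralogs restricted to certain tissues were dim or uneven. Rpl3l, the striated-muscle counterpart of Rpl3, measured 2.15 to 3.08 array medians in heroin rats and 2.62, 2.16, 2.60, 2.08 and 2.58 in saline rats, with 0.04 ± 0.13. Rpl10l, the testis counterpart of Rpl10, was detected on all arrays and spread widely. The 6 heroin rats ran from 3.88 to 27.4 with a middle of 9.35, and saline rats 2 to 6 measured 3.59, 5.76, 17.3, 21.5 and 6.37. High and low rats were found in both groups, and the difference was 0.16 ± 0.53 (exact permutation p = 0.803). Rps26 also spread widely, from 11.5 to 36.4 array medians in saline rats and from 17.1 to 40.8 in heroin rats, with 0.37 ± 0.28. It was singled out after its values were seen.

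A pyrimidine run at the start, which the choice by name did not use, was found in part of these genes. RefSeq windows (build GRCr8) around the annotated start were matched for 59 of the 74 genes, and the first transcribed base was searched for C followed by at least 4 bases that are each C or T, on the gene's strand. Such a run began exactly at the start in 23 of 59 windows (39.0%), beside 2.63% of all 33469 windows and 2 of 63 (3.17%) for mitochondrial ribosomal proteins. Within 5 bases of the start the counts were 38 of 59 (64.4%), beside 17.0% of all windows and 16 of 63 (25.4%) for mitochondrial ribosomal proteins. Windows of 30 bases, 10 before the start and 20 from it, are given for 5 genes with the run in capitals. The window of Rps6, which had no such run within 5 bases of its annotated start, is given beside them.
Rpl10, chrX:157205840-157205869, plus strand: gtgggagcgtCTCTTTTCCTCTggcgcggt
Rpl19, chr10:83519054-83519083, plus strand: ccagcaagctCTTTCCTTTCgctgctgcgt
Rplp1, chr8:71290853-71290882, minus strand: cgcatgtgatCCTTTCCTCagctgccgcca
Rps15, chr7:10068096-10068125, minus strand: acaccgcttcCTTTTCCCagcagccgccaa
Rps18, chr20:4933735-4933764, plus strand: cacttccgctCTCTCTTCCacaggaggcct
Rps6, chr5:106420521-106420550, minus strand: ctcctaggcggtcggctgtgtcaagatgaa

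A match says only that these letters stand at the annotated start, which may lie some bases from the true one. For the same reason the lack of a match does not show that a gene, such as Rps6, has no tract. Genes with a run exactly at the start had a median difference of 0.15 over 31 tested probes, those with a run within 5 bases 0.18 over 21, and those without one 0.11 over 33. After quantile normalization the 3 medians were -0.084, -0.065 and -0.11.

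Genes that work with the ribosome were compared by lists, which share probes and so are not separate sets. Probes of Eef2, Eef1g, Eif4b and others are in the lists of both pyrimidine-tract mRNAs and initiation and elongation factors. Those of Npm1 are in the lists of both pyrimidine-tract mRNAs and biogenesis factors. Of 39 tested probes for other mRNAs with a terminal pyrimidine tract, such as elongation factors, Tpt1 and Fau, none passed both thresholds, 39 were higher in heroin rats and the median difference was 0.19, or -0.05 after quantile normalization. Eef2, which moves the ribosome along the message, gave 0.26 ± 0.13. Ribosome biogenesis factors gave 0 of 26 past both thresholds and a median of 0.23. For initiation and elongation factors the count was 0 of 71, the median was 0.26, and 22 probes had an unadjusted p under 0.05 with a higher value, beside 15.7% of all tested probes, a count that was 2 after quantile normalization, 1 with the detected probes as divisor and 0 with the 75th percentile. The dim Eif4g3 probe, whose product is a scaffold of the cap-binding complex, lay just short of 1.4-fold at -0.48 ± 0.15 and passed both thresholds after quantile normalization at -0.50. It was singled out for that, and 2 other Eif4g3 probes were at 0.18 ± 0.12 and 0.30 ± 0.25. TOR signalling gave 0 of 23 with a median of 0.23, and 19 of the 23 were higher in heroin rats, beside 78.7% of all tested probes. Rheb, which activates TOR, is named because it had the smallest limma p of that list. Its 2 probes gave 0.29 ± 0.12 and 0.33 ± 0.12, but only 0.035 and 0.083 after quantile normalization. After quantile normalization the medians of the last 3 lists were -0.0100, 0.033 and 0.033.

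Mitochondrial ribosomal proteins, which serve the separate ribosome of mitochondria, gave 0 of 68 past both thresholds and a median of 0.19, or -0.044 after quantile normalization. A further 311 tested probes have descriptions that name a ribosomal protein while the gene name falls outside the rule, most of them transcript models. They include 2 probes of Rpsa, a small subunit protein, which are also in the list of mRNAs with a pyrimidine tract. Of the 311 probes, 259 were higher in heroin rats and the median was 0.10. Past both thresholds were 2, both lower, beside 2.72% of all tested probes. They were RGD1562454_predicted at -0.54 ± 0.21 and XM_344206 at -0.53 ± 0.16, named for passing. Both were dim, with means of 0.90 and 0.49 array medians in heroin rats and 1.32 and 0.72 in saline rats. After quantile normalization 47 of the 311 were higher and the median was -0.13. Past both thresholds were then 1 higher and 2 lower, beside 1.79% of all tested probes. RGD1562454_predicted was still among the lower ones and XM_344206 was not. The higher one was XM_344202 at 0.50, also dim, with means of 0.56 array medians in heroin rats and 0.43 in saline rats. With the 75th percentile as divisor 6 passed, all lower, beside 779 of 25555 tested probes. With the detected probes 5 passed, all lower, beside 675. None of these lists was tested as a list.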

How the data were processed

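Per the labels, RNA was amplified, labelled with Cy3 and hybridised to 1 array per rat. The authors deposited background-corrected spot intensities (Feature Extraction 9.5.1.1), not scaled between arrays, and ratios of 23670 probes to each gene's median, used here as an alternative. The methods name 6 arrays per group, and 11 in all were analysed here.

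Control spots and spots marked non-uniform or outlying were left out, intensities below 5 were set to 5, and spots of a probe were averaged as log2 before scaling. A probe was detected where at least 0.5 of its spots were well above background. The 25555 tested probes were detected on all 11 arrays and usable on at least 2 per group. limma (3.58.1, R 4.3.3; lmFit, eBayes, two-sided, Benjamini-Hochberg over all) was checked on simulated data. Exact permutation tests, two-sided, used all 462 divisions of the rats, and the smallest p they allow is 0.00216. The number of arrays limits the precision.

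Genes were named by rule: the 10 smallest p, the 5 brightest probes, the 5 genes whose probes disagreed most, and fixed stalk, 5S-particle, reference, disease and paralog genes. Members, lists and rules were chosen with earlier results of these data known. Deviations of the 5 same-numbered pairs correlated between -0.237 and 0.384, a mixed range that does not settle whether pairing was needed. The main fit and the permutation tests did not use the numbers as pairs, although same-numbered arrays shared a scan. A fit with the number as a block is given below. Values of 2 genes are not reported here, though they count in the sets.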

Additional observations from a re-analysis of the deposited data

Results flagged for a closer look

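In 7 of 80 groups of values examined (2 groups of rats for each named probe not saturated on all arrays and for 2 set medians), 1 rat lay far from the others of its group by Dixon's gap test, which flags about 1 group in 20 by chance. Heroin rat 6 was the high one in 6 of them: Rpl15 (dim probe) at 19.9 array medians against 12.7 to 14.4 in the other heroin rats, the 2 overlapping Rpl36a probes at 402 and 392 against at most 272, the opposite-strand Rps15 probe at 15.9 against at most 7.49, Rps15a at 893 against at most 588, and Rps27a at 621 against at most 437. This array had the lowest median signal, 42.7, and its part in these values was not tested. Heroin rat 5 was low for Rpl4, at 114 against 149 to 168.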

How the results depend on the processing

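The count of ribosomal protein probes past both thresholds stayed at 0 under every planned setting that kept all 11 rats, and under no scaling at all, a setting added after the data were seen. Leaving out 1 rat in turn gave 0 to 1: without saline rat 4 or saline rat 5 the dim Rpl15 probe passed, at 0.50 and 0.51. The median difference of 0.147 became -0.0694 with the 75th percentile and -0.0842 with quantile normalization. It ranged from 0.0854 to 0.206 when 1 rat was left out. The number of probes higher in heroin rats fell from 105 to 28 with the 75th percentile, 21 with quantile normalization and 35 when arrays were scaled to the probes detected on all of them, and ranged from 95 to 106 when 1 rat was left out. A percentile or detected-probe divisor moves all probes of an array alike. With the replicate number as a block, which is also the scan as a block, since same-numbered arrays shared a scan, the median was 0.13, 101 probes were higher and none passed, so the slide was not fitted separately. Of the 40 named probes, 29 changed sign under quantile normalization, 27 under the 75th percentile, 24 under detected-probe scaling and at most 7 under any other setting. Saturation limits 10 of the 110 probes, 2 of them on every array, and leaving these 10 out gave a median of 0.15. Near-identical transcripts limit what a single probe can assign to a gene.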
